A study of Homo sapiens with 156 samples.

Results

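Genes of telomerase and the telomere, 10 of the 59939 in the deposited tables, were followed through acute myeloid leukaemia cells treated with compounds that inhibit DNMT1, which restores DNA methylation after replication. The set was selected on one measured value, the low level of TERT in treated MV411 cells at day 4, together with 9 partners chosen by function: TERC, DKC1, NOP10, NHP2, GAR1, WRAP53, TERF1, TERF2 and POT1. The question was whether a lower level of TERT extended to these partners. Expression was measured by RNA sequencing in MV411, THP1 and NOMO1, established leukaemia lines that carry rearrangements of KMT2A, in 156 libraries that fall into 78 groups of 2. Each line received GSK032 (GSK3685032) or decitabine (DAC), a nucleoside analogue that traps DNA methyltransferases on DNA. Both were given at 400 nM for 1, 2, 4 or 6 days, and for 4 days over the doses 3.2, 16, 80, 400, 2000 and 10000 nM. The dose of GSK862 (GSK3484862) was 1000 nM and that of GSK477 (GSK3510477) 10000 nM, each for 2 and 4 days. DMSO, the vehicle, was the control on each of the 4 days. All cells were plated 24 hours before treatment, and the labels name no engineered change in any group, so each line stands for 1 leukaemia. GSK032 and GSK862 are known as DNMT1 inhibitors and GSK477 as a control compound without that activity. Nothing in the labels calls the 2 libraries of a group separate cultures, so a p-value here measures the spread between libraries, which may be technical.

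Telomerase adds telomeric repeats to chromosome ends. TERT is its reverse transcriptase and TERC the RNA that holds the template. DKC1 (dyskerin), NOP10, NHP2 and GAR1 bind the H/ACA domain of TERC and serve many other small nucleolar RNAs, and WRAP53 (TCAB1) directs the enzyme to Cajal bodies. TERF1 and TERF2 bind double-stranded telomeric DNA and POT1 binds the single-stranded overhang, as members of the shelterin complex that caps the ends. TERT transcription is silent in most somatic cells and is switched on in most cancers, and its promoter lies in a CpG island.

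The promoter of TERT is shown because the level of this gene chose the set. The gene lies on chromosome 5 from 1253147 to 1295069 on the minus strand (hg38, GENCODE 29), and the 250 bases before its RefSeq start (GRCh38.p14, chr5:1295069-1295318, minus strand) read 5′ to 3′ as follows, with capitals on CACGTG (the E-box bound by MYC and MAX) and on GGGCGG (the GC box bound by SP1), matched on either strand.
TERT: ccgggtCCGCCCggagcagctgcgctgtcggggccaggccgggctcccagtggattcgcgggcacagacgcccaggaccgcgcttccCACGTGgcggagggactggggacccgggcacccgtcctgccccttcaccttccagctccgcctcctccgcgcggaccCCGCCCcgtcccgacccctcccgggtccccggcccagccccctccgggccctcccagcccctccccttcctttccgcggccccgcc
These 250 bases held 28 CG pairs, against a median of 11 over the same window of 35116 RefSeq promoters. They held CACGTG 1 time and GGGCGG 2 times, and CCGGAA, the core bound by ETS factors, 0 times. CACGTG was present in 6.34% of all those windows, GGGCGG in 42.6% and CCGGAA in 14.5%. The motifs do not overlap one another in the TERT window, and a match describes letters only. The table held promoters for 7 of the 10 members. The window of NHP2 held GGGCGG 5 times with 22 CG pairs, and that of NOP10 held CACGTG 2 times and CCGGAA 2 times with 12 CG pairs. That of DKC1 held GGGCGG 4 times with 29 CG pairs, more than TERT. CG pairs were 25 for POT1, 14 in each GAR1 window, and 16, 13 and 27 in the WRAP53 windows.

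Levels are in FPKM, fragments per kilobase scaled to library size, which allows a comparison between genes per length. TERT was the lowest member in every line. In the 8 DMSO libraries of each line its lowest, median and highest FPKM were 3.44, 3.88 and 4.39 in MV411, 1.07, 1.78 and 3.67 in THP1 cells, and 1.01, 1.61 and 2.36 in NOMO1. The next lowest member was WRAP53 in MV411, THP1 and NOMO1, with median FPKM of 13.5, 5.64 and 9.81, and its lowest DMSO library stayed above the highest of TERT in each line. NOP10 and NHP2 were the highest members, at median FPKM of 220 and 192 in MV411, 189 and 119.6 in THP1 cells, and 211 and 119.5 in NOMO1. In MV411 their DMSO ranges overlapped. TERC and DKC1 came next, with medians of 87.8 and 85.3 in MV411, 69.3 and 61.9 in THP1 cells, and 48.2 and 67.5 in NOMO1. In MV411, POT1 (25.6), GAR1 (23.5), TERF1 (20.2), TERF2 (15.1) and WRAP53 (13.5) then followed by median FPKM, and each overlapped its neighbour in that order.

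The deposited FPKM did not sum to 1 common total over libraries, and the read depth behind them is unknown. SPI1, a transcription factor of myeloid cells, had median DMSO FPKM of 82.4, 76.6 and 89.2 in MV411, THP1 and NOMO1, and CD33, a myeloid surface protein, 85.1, 52.6 and 41.8. MPO, another myeloid marker listed, was far from even, at 3.32, 7.14 and 1920. Of 8 markers of other cell types, HBB and CD3E stayed at or below 0.0957 and 0.799 FPKM in all libraries. KRT8, KRT18, COL1A1 and EPCAM did not. In NOMO1 their highest DMSO values were 7.69, 31.6, 0.672 and 1.54, against highest values over all libraries of 107, 109, 39.6 and 7.56. The sum of the 8 in DMSO, GSK032 and DAC libraries was 3.38 to 4.05, 3.08 to 9.12 and 3.70 to 75.5 FPKM in THP1. In NOMO1 it was 27.6 to 41.5, 30.9 to 92.0 and 42.1 to 257. In MV411 it was 9.35 to 20.5, 8.42 to 20.1 and 7.18 to 28.4, and its part in the results below was not tested. Among the members one library stood apart, DAC 80 nM day 4 replicate 2 of NOMO1, where GAR1 was 1.67 FPKM against 14.2 in the other library and TERC 14.8 against 77.6.

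TERT in MV411 fell with time under both 400 nM treatments and stayed level in DMSO. The 2 DMSO libraries had 3.69 and 3.83 FPKM at day 1, 3.71 and 4.39 at day 2, 3.44 and 4.02 at day 4, and 4.26 and 3.93 at day 6. With GSK032 the values were 3.85 and 2.79 at day 1, 1.34 and 1.4 at day 2, 0.309 and 0.303 at day 4, and 0.0915 and 0.0773 at day 6. At days 2, 4 and 6 both treated libraries lay below every DMSO library of the line. Differences were taken on the scale of log2(FPKM + 0.5), which understates the change of a gene this low, and were tested with limma and Benjamini-Hochberg adjustment over all genes of a line. TERT fell by 1.28 at day 2 (SE 0.222, adjusted p = 0.000217) and by 2.98 at day 6 (SE 0.222, adjusted p = 4.25e-12), whereas the log2 difference at day 1 was -0.17 (adjusted p = 1). The day 4 difference of -2.39 belongs to the values that chose the set and is given without a test.

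DAC gave TERT values in MV411 of 3.00 and 1.66 FPKM at day 1, 1.2 and 1.49 at day 2, 0.390 and 0.288 at day 4, and 0.262 and 0.260 at day 6. The log2 difference from DMSO was -0.63 at day 1 (adjusted p = 0.123), and TERT fell by 1.3 at day 2 (adjusted p = 0.000111) and by 2.59 at day 6 (adjusted p = 1.07e-10). At day 4, among the values that chose the set, it was -2.33.

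In NOMO1 TERT passed the test at days 4 and 6 and not at days 1 and 2. Each line's table was fitted apart, so differences between lines were not tested. DMSO libraries had 1.01 and 1.73 FPKM at day 1, 1.46 and 1.5 at day 2, 1.3 and 1.97 at day 4, and 2.13 and 2.36 at day 6. GSK032 gave 1.37 and 1.31, 0.627 and 1.06, 0.215 and 0.430, and 0.104 and 0.0472 on the same days, and DAC gave 2.46 and 1.73, 1.34 and 1.22, 0.119 and 0.228, and 0.115 and 0.0578. Treated libraries lay below the DMSO libraries of the same day, with no overlap, at days 2, 4 and 6. TERT fell by 1.37 with GSK032 (SE 0.230, adjusted p = 5.37e-05) and by 1.65 with DAC (adjusted p = 4.36e-07) at day 4, and by 2.26 (adjusted p = 7.11e-09) and 2.23 (adjusted p = 1.23e-09) at day 6. At day 2 the log2 differences were -0.58 (adjusted p = 0.305) and -0.15 (adjusted p = 0.738). Those of day 1 were 0.002 with GSK032 and 0.49 with DAC. Before adjustment the DAC interval, 0.02 to 0.96, lay above 0. A fit on the libraries of the GSK032 comparison alone ended its day 4 call.

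In THP1 TERT fell with DAC and did not pass the test with GSK032. DMSO values of TERT were 1.27 and 1.47 FPKM at day 1, 1.92 and 1.07 at day 2, 1.97 and 1.65 at day 4, and 3.46 and 3.67 at day 6. In DMSO TERT rose by 1.12 on the log2 scale from day 1 to day 6 (adjusted p = 0.0202), against log2 differences of 0.11 in MV411 and 0.58 in NOMO1 (adjusted p = 0.21 in the latter). With GSK032 TERT was 1.42 and 1.18 at day 1, 1.51 and 2.15 at day 2, 2.20 and 2.34 at day 4, and 2.40 and 2.03 at day 6. At day 4 both GSK032 libraries were above both DMSO libraries, and at day 6 both were below. Neither difference passed the test: the log2 values were 0.27 (95% interval -0.30 to 0.84, adjusted p = 0.577) and -0.59 (adjusted p = 0.121). With DAC, TERT was 0.606 and 0.856 FPKM at day 4 and 0.671 and 0.752 at day 6, below all DMSO libraries of the line. It fell by 0.91 at day 4 (adjusted p = 0.00982) and by 1.75 at day 6 (adjusted p = 5.33e-06). The day 4 call was lost without DAC replicate 1 (-0.76) or without DMSO replicate 1 (-0.81). In the authors' deposited table of comparisons the day 4 log2 fold changes of TERT were 0.35 for GSK032 and -1.3 for DAC in THP1, -2.37 and -3.31 in NOMO1, and -3.61 and -3.46 in MV411. The THP1 table names NOMO1 in its first header line and THP1 in its second, and was read by the second.

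**Figure D1:**
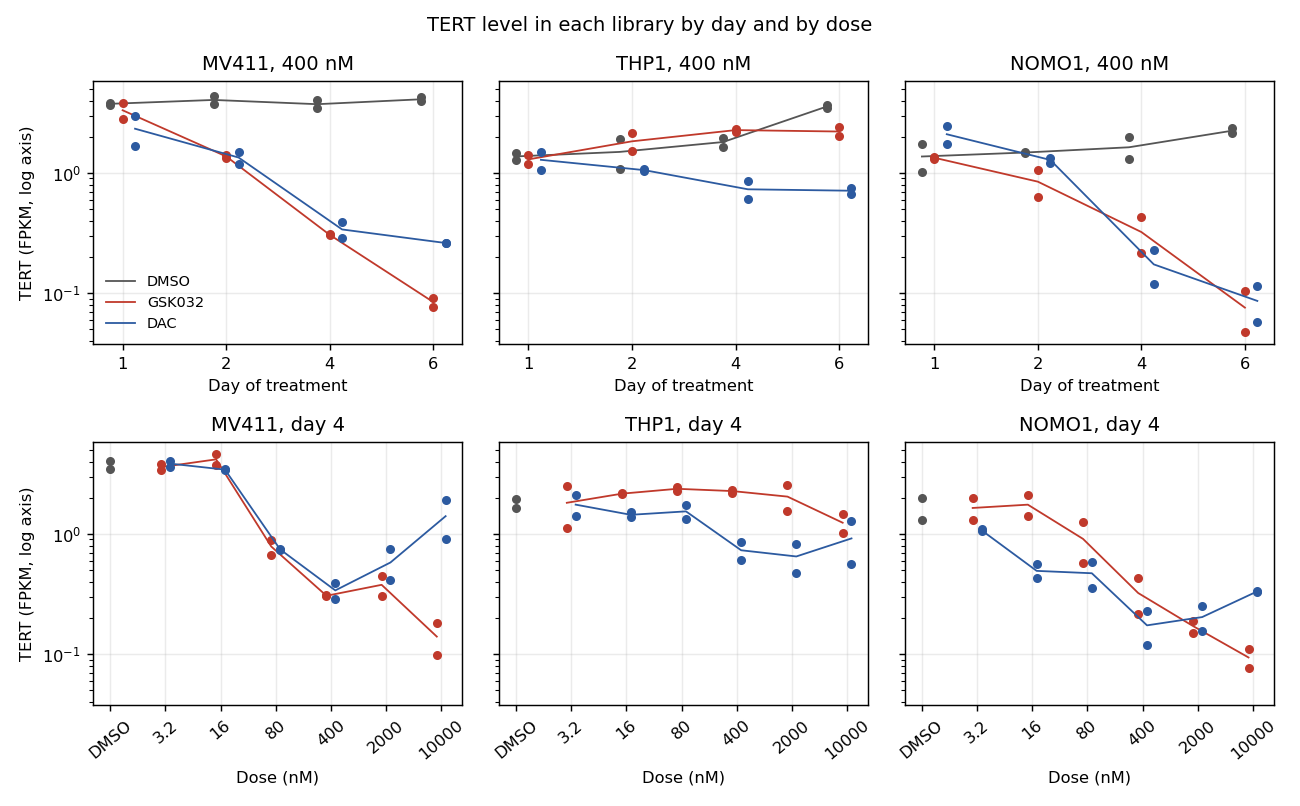
TERT in every library, in FPKM on a log vertical axis, by day at 400 nM and by dose in nM at day 4, for DMSO, GSK032 and DAC in each line, with points for libraries and lines through group means. MV411 at 400 nM went from 3.85 and 2.79 at day 1 to 0.0915 and 0.0773 at day 6 with GSK032, while THP1 with GSK032 had 1.42 and 1.18 at day 1 and 2.40 and 2.03 at day 6, the latter below DMSO at 3.46 and 3.67.

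Across doses at day 4, TERT in MV411 overlapped or lay close to the DMSO libraries at 3.2 nM (GSK032 3.38 and 3.81 FPKM, DAC 4.07 and 3.62) and at 16 nM (4.62 and 3.72, 3.46 and 3.39). At 80 nM it was 0.896 and 0.673 with GSK032 and 0.746 and 0.741 with DAC. Both agents thus showed their step between 16 and 80 nM in this line, among the day 4 values that chose the set, so it is a description without a test. At 2000 nM GSK032 gave 0.306 and 0.448 and DAC 0.412 and 0.745, and at 10000 nM 0.0975 and 0.182 against 1.91 and 0.899. TERT in the 10000 nM DAC libraries was therefore higher than in the 400 nM DAC libraries, a difference of 1.13 on the log2 scale, picked out after its values were seen and given without a test. Between the same libraries DKC1 differed by -1.04, NHP2 by -0.97 and GAR1 by -0.93.

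NOMO1 showed the step at a lower dose of DAC than of GSK032. At 16 nM DAC libraries had 0.428 and 0.557 FPKM and GSK032 libraries 1.4 and 2.10, with no overlap. TERT fell by 1.09 at 16 nM DAC (adjusted p = 0.00231), and the log2 difference at 16 nM GSK032 was 0.08 (adjusted p = 1). At 80 nM the values were 0.356 and 0.586 for DAC and 0.572 and 1.25 for GSK032, and at 10000 nM 0.330 and 0.336 for DAC and 0.0774 and 0.110 for GSK032. Per 5-fold step in dose, TERT in NOMO1 fell by 0.43 with GSK032 (adjusted p = 1.17e-10) and by 0.19 with DAC (adjusted p = 9.37e-05). In THP1 the slope was -0.19 with DAC (adjusted p = 0.0011) and -0.06 with GSK032 (adjusted p = 0.329), and without the 10000 nM libraries the GSK032 slope was 0.04. Single doses of DAC in THP1 passed at 400, 2000 and 10000 nM, where TERT fell by 1.02 at 2000 nM (adjusted p = 0.00316) and by 0.75 at 10000 nM (adjusted p = 0.0267). No dose of GSK032 passed in THP1. At 10000 nM the GSK032 libraries had 1.45 and 1.03 FPKM and a log2 difference of -0.42 (adjusted p = 0.274).

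GSK032 and DAC were compared directly at 9 matched doses and days in each line, with p for TERT adjusted over the 9 pairs in THP1 and NOMO1. In MV411 the 6 pairs of day 4 draw on the libraries that chose the set and are given as values with no test: the log2 difference, GSK032 minus DAC, was -0.06 at 400 nM and -1.52 at 10000 nM. An adjustment over 9 pairs would draw on those 6, so none is given for this line. With limma adjusted over all genes, TERT did not pass in the 3 pairs at other days. Of these, 1 had an unadjusted p under 0.05, at day 1 (0.46). In THP1 3 pairs passed, each with TERT higher under GSK032: 1.18 at 400 nM day 4 (interval 0.61 to 1.75), 1.13 at 2000 nM and a like difference at 400 nM day 6 (2.40 and 2.03 against 0.671 and 0.752 FPKM), all with adjusted p = 0.00103. At 10000 nM the difference in THP1 was 0.33, with an interval from -0.24 to 0.90. In NOMO1 the 16 nM pair passed, with TERT higher under GSK032 by 1.17 (interval 0.70 to 1.64, adjusted p = 0.00021).

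The partners of TERT were next counted at 400 nM and day 4, over the 9 genes other than TERT. A gene passed at an adjusted p under 0.05. In MV411 6 of 9 partners fell with GSK032, where 17.3% of all genes tested fell, and 7 of 9 fell with DAC, where 19.0% did. In THP1 3 of 9 fell with GSK032 (13.8% of all genes) and 6 of 9 with DAC (19.4%). In NOMO1 the counts were 3 of 9 with GSK032 (8.29%) and 5 of 9 with DAC (26.2%). None of the 9 passed as higher with limma in these 6 comparisons, and 0 had an unadjusted p under 0.05 in that direction, whereas 15.9%, 9.21% and 10.2% of all genes rose with GSK032 and 16.8%, 19.1% and 26.1% with DAC in MV411, THP1 and NOMO1. The median log2 difference of the partners was -0.61 and -0.81 in MV411 with GSK032 and DAC, -0.28 and -0.37 in THP1 cells, and -0.27 and -0.65 in NOMO1, where the median over all genes lay between -0.03 and 0. Those all-gene shares take in many genes of low level, unlike the partners. Among genes with a mean FPKM of at least 1, 3762 and 4150 of 16180 fell in MV411 with GSK032 and DAC. In THP1 3275 and 4332 of 17355 fell, and in NOMO1 1766 and 5332 of 15521. The medians of these genes lay between -0.113 and -0.02. With FPKM rescaled to equal sums the GSK032 count of partners was 3 in MV411 and 0 in NOMO1. On the libraries of each comparison alone the MV411 counts were 3 and 4.

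DKC1 and NHP2, 2 of the 4 H/ACA proteins, fell in all 6 of these comparisons. In MV411 DKC1 was 80.9 and 67.3 FPKM in DMSO, 55.4 and 54.6 with GSK032, and 44.1 and 39.8 with DAC. The 3 groups did not overlap. DKC1 fell by 0.42 with GSK032 (SE 0.0914, adjusted p = 0.000551) and by 0.81 with DAC (adjusted p = 3.59e-08). In THP1 it went from 56.3 and 53.0 to 33.9 and 37.6 and to 35.3 and 32.2, and in NOMO1 from 65.7 and 63.3 to 50.5 and 47.9 and to 33.3 and 34.2. The falls were 0.61 and 0.69 in THP1 cells, and 0.39 and 0.92 in NOMO1. At 400 nM day 4 DKC1 was higher with GSK032 than with DAC by 0.54 in NOMO1 (adjusted p = 2.71e-07) and by 0.39 in MV411.

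NHP2 was 172.9 and 138.8 FPKM in DMSO, 79.3 and 74.2 with GSK032 and 85.3 and 65.5 with DAC in MV411. It fell by 1.01 and 1.05 there, by 0.61 and 1.04 in THP1 cells, and by 0.41 and 1.21 in NOMO1. In NOMO1 its DMSO values of 106.6 and 122.6 became 82.7 and 88.9 with GSK032 and 46.2 and 52.2 with DAC, so the 3 groups were separate. The direct difference between agents was 0.80 in that line (adjusted p = 2.89e-08), and the GSK032 call was lost without DMSO replicate 2 (-0.31).

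NOP10, the smallest of the H/ACA proteins, fell in MV411 with both agents and did not pass in the other lines at this day and dose. Its MV411 values were 202 and 150.6 FPKM in DMSO, 93.7 and 78.0 with GSK032, and 103 and 81.7 with DAC, for falls of 1.03 (adjusted p = 0.00148) and 0.92, of which the DAC call was lost without DAC replicate 2 or DMSO replicate 1. In THP1 the log2 difference with GSK032 was -0.28 (adjusted p = 0.0586), and in NOMO1 DMSO values of 204 and 232 stood beside 228 and 243 with GSK032 and 175 and 201 with DAC.

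GAR1, which joins the particle last, fell by 0.73 and 1.13 in MV411 and by 0.90 and 0.74 in THP1. In MV411 its 2 DMSO libraries differed from each other, at 26.2 and 16.1 FPKM, against 13.7 and 11.0 with GSK032 and 9.28 and 9.04 with DAC. In NOMO1 it fell by 1.24 with DAC, from 21.0 and 18.1 to 7.40 and 8.61. With GSK032 the NOMO1 values of 14.3 and 13.5 also lay below DMSO, at a log2 difference of -0.48 that did not pass (adjusted p = 0.552). The spread of GAR1 in that fit is shared over all NOMO1 groups, among them the 80 nM DAC libraries at 14.2 and 1.67 FPKM. The part of the 1.67 FPKM library in this result was not tested. WRAP53 fell by 0.83 and 0.78 in MV411 and by 0.65 with DAC in NOMO1. In MV411 without DMSO replicate 1 the GSK032 differences of GAR1 (-0.38) and WRAP53 (-0.54) no longer passed, nor did either without GSK032 replicate 2, and the DAC call of WRAP53 was lost without DMSO replicate 1, DAC replicate 1 or DAC replicate 2. In NOMO1 the DAC call of GAR1 was lost without DAC replicate 1 or DMSO replicate 1, and that of WRAP53 without DMSO replicate 2. Whether the counting used strand is not given in the sources used here, so the values of WRAP53 are uncertain: reads from the opposite strand could not be told apart from its own.

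Of the 3 shelterin members, POT1 fell in MV411 with both agents and in THP1 with DAC. In MV411 POT1 was 22.5 and 23.5 FPKM in DMSO, 15.4 and 17.2 with GSK032 and 15.8 and 20.4 with DAC, for falls of 0.48 (adjusted p = 0.00495) and 0.34 (adjusted p = 0.0424). It overlaps an antisense gene, and the same limit on strand applies. TERF2 fell by 0.41 with GSK032 (adjusted p = 0.00481) and 0.70 with DAC in NOMO1, where 12.3 and 12.9 FPKM became 9.56 and 9.20 and 7.54 and 7.65. It fell by 0.33 with DAC in MV411 and by 0.36 with DAC in THP1. TERF1 fell in 1 of the 6 comparisons, by 0.34 with DAC in THP1, from 18.5 and 16.6 to 13.6 and 13.9. In MV411 its values were 19.3 and 20.1 in DMSO, 17.1 and 17.5 with GSK032 and 17.4 and 15.9 with DAC, and the log2 differences of -0.18 (adjusted p = 0.255) and -0.24 (adjusted p = 0.122) did not pass. TERF1 and TERF2 in MV411 with GSK032 changed sign, to 0.10 and 0.08, when FPKM were rescaled to equal sums. Several calls of these 3 genes rested on single libraries: in MV411 that of POT1 was lost without GSK032 replicate 1 and, with DAC, without DMSO replicate 1, DMSO replicate 2 or DAC replicate 1, and that of TERF2 with DAC without DMSO replicate 2 or DAC replicate 1. In THP1 with DAC, TERF1 was lost without DMSO replicate 1, POT1 without DMSO replicate 1 or DAC replicate 2, and TERF2 without DMSO replicate 2 or either DAC library. In NOMO1 TERF2 with GSK032 was lost without DMSO replicate 2 (-0.38).

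The fall of TERT was set against those of its partners by their intervals, outside the MV411 day 4 values. In NOMO1 with GSK032 at day 4 the 95% interval of the TERT log2 difference was -1.84 to -0.90. It lay below that of 8 of the 9 partners, all but GAR1, and at day 6 below all 9. In MV411 with GSK032 at day 6 the TERT interval of -3.43 to -2.52 lay below all 9. In THP1 with GSK032 at day 4 it lay below 0 of 9, while 3 partners fell. With DAC it lay below 7 of 9 in NOMO1 at days 4 and 6, below 3 of 9 in NOMO1 at 10000 nM, below 1 of 9 in THP1 at day 4 and 7 at day 6, and below all 9 in MV411 at day 6.

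**Figure D2:**
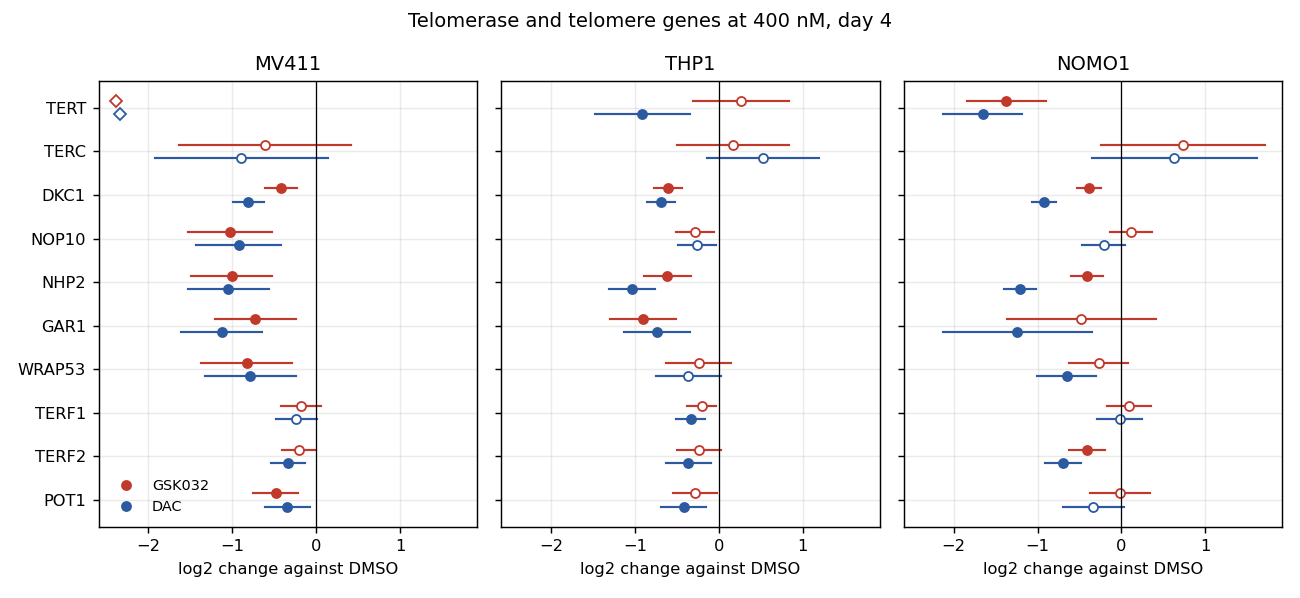
Log2 differences from DMSO at 400 nM and day 4 for the 10 members in each line, with GSK032 and DAC in separate colours, lines for 95% intervals and filled symbols for an adjusted p under 0.05. TERT in MV411, which chose the set, is an open diamond with no interval. DKC1 and NHP2 are filled in all 6 comparisons, and TERT with GSK032 sits at 0.27 in THP1.

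TERC, the template RNA, varied between the 2 libraries of a group. At day 4 its DMSO libraries had 272.5 and 49.7 FPKM in MV411, 58.9 and 37.3 in THP1 cells and 49.6 and 33.1 in NOMO1. With 400 nM GSK032 they had 95.5 and 60.7, 58.4 and 47.7, and 68.3 and 67.3. TERC passed in 0 of the 6 comparisons at 400 nM day 4 with limma, and also in 0 at an unadjusted p under 0.05. The MV411 log2 differences of -0.61 (adjusted p = 0.387) and -0.89 (adjusted p = 0.18) turned to 0.61 and 0.33 without DMSO replicate 1. Against DMSO TERC rose in 2 other comparisons: by 1.23 with 10000 nM GSK032 in NOMO1 (95.6 and 96.7 FPKM, adjusted p = 0.0361) and by 1.06 with GSK862 at day 4 in THP1 (92.5 and 105 FPKM, adjusted p = 0.0284). In both the treated libraries lay above the DMSO libraries of that day. How total RNA was prepared for sequencing bears on a short RNA such as TERC and was not tested.

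**Figure D3:**
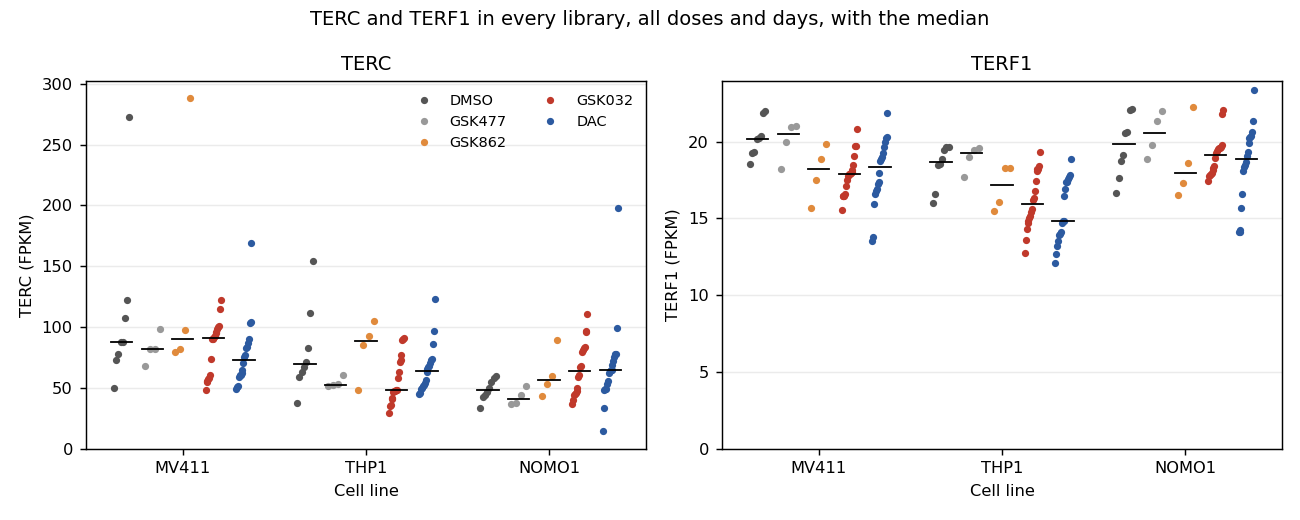
TERC and TERF1 in every library, in FPKM from 0, by line and compound, with points for libraries and bars for medians. TERC reached 272.5 in 1 DMSO library of MV411, whereas TERF1 in DMSO stayed between 16.0 and 22.1 over the 3 lines.

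Over time at 400 nM, partners passed as lower from day 2. On day 1 limma called 0 of 9 in each line with either agent, and at an unadjusted p under 0.05 the lower partners numbered 0 and 2 in MV411, 0 and 2 in THP1 cells, and 1 and 0 in NOMO1 for GSK032 and DAC. All genes called lower on day 1 were 0.00454%, 0.00861% and 0.00963% with GSK032 and 1.69%, 0.702% and 0.949% with DAC in MV411, THP1 and NOMO1. On day 2 TERF2 alone passed with GSK032 in MV411 (2.48% of all genes lower), where it fell by 0.45 (adjusted p = 0.00376), and DKC1 alone passed in THP1 (4.12%), where it fell by 0.36 (adjusted p = 0.00638). In NOMO1 limma called 0 of 9 with GSK032 on day 2 and 1 had an unadjusted p under 0.05, against 0.424% of all genes. With DAC on day 2 the partners lower were DKC1 and TERF2 in MV411 (6.96%), DKC1 and NOP10 in THP1 (6.26%), and DKC1, NHP2 and TERF2 in NOMO1 (10.3%).

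On day 6, 5 of 9 partners passed as lower in MV411 with GSK032 (16.7% of all genes) and 5 of 9 with DAC (16.7%), DKC1, NOP10, NHP2 and POT1 in both. In THP1 the counts were 4 with GSK032 (17.3%) and 7 with DAC (23.1%), and in NOMO1 2 with GSK032 (14.0%) and 6 with DAC (28.9%). NHP2 fell by 0.84 and 1.5 in THP1 and by 0.65 and 1.65 in NOMO1 with GSK032 and DAC at day 6. The 2 agents differed at day 6 for NHP2 by 0.66 in THP1 (adjusted p = 0.00052) and by 1.00 in NOMO1 (adjusted p = 2.56e-10), and for DKC1 by 0.40 (adjusted p = 0.00045) and 0.68 (adjusted p = 2.76e-09), with GSK032 the higher. In MV411 DMSO itself DKC1 fell by 0.36 (adjusted p = 0.0071) and GAR1 by 0.78 (adjusted p = 0.0261) between days 1 and 6.

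At 10000 nM and day 4, 6 of 9 partners passed as lower with GSK032 in MV411 (24.6% of all genes) and 7 with DAC (30.1%). In THP1 7 passed with GSK032 (21.6%) and 7 with DAC (26.2%), and in NOMO1 3 with GSK032 (22.3%) and 7 with DAC (29.0%). In MV411 DKC1 fell by 1.85, NHP2 by 2.02 and GAR1 by 2.05 with DAC, to 21.6 and 18.8, 51.8 and 27.7, and 4.71 and 4.46 FPKM. GSK032 left DKC1 higher than DAC by 1.05 (adjusted p = 2.21e-10), GAR1 by 0.89 (adjusted p = 0.00328) and POT1 by 0.58 (adjusted p = 0.000817). POT1 fell by 1.11 in MV411, 0.81 in THP1 and 1.06 in NOMO1 with 10000 nM DAC.

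Per 5-fold step in dose DKC1 fell in all 6 series, by 0.17 with GSK032 and 0.43 with DAC in MV411, by 0.16 and 0.24 in THP1 cells, and by 0.10 and 0.29 in NOMO1. NHP2 also fell in all 6, by 0.34 and 0.47, 0.23 and 0.27, and 0.24 and 0.29. The dose at which the partners parted from DMSO differed from that of TERT in NOMO1 with DAC. At 16 nM the TERT interval there lay below that of 8 of the 9 partners, all but GAR1.

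**Figure D4:**
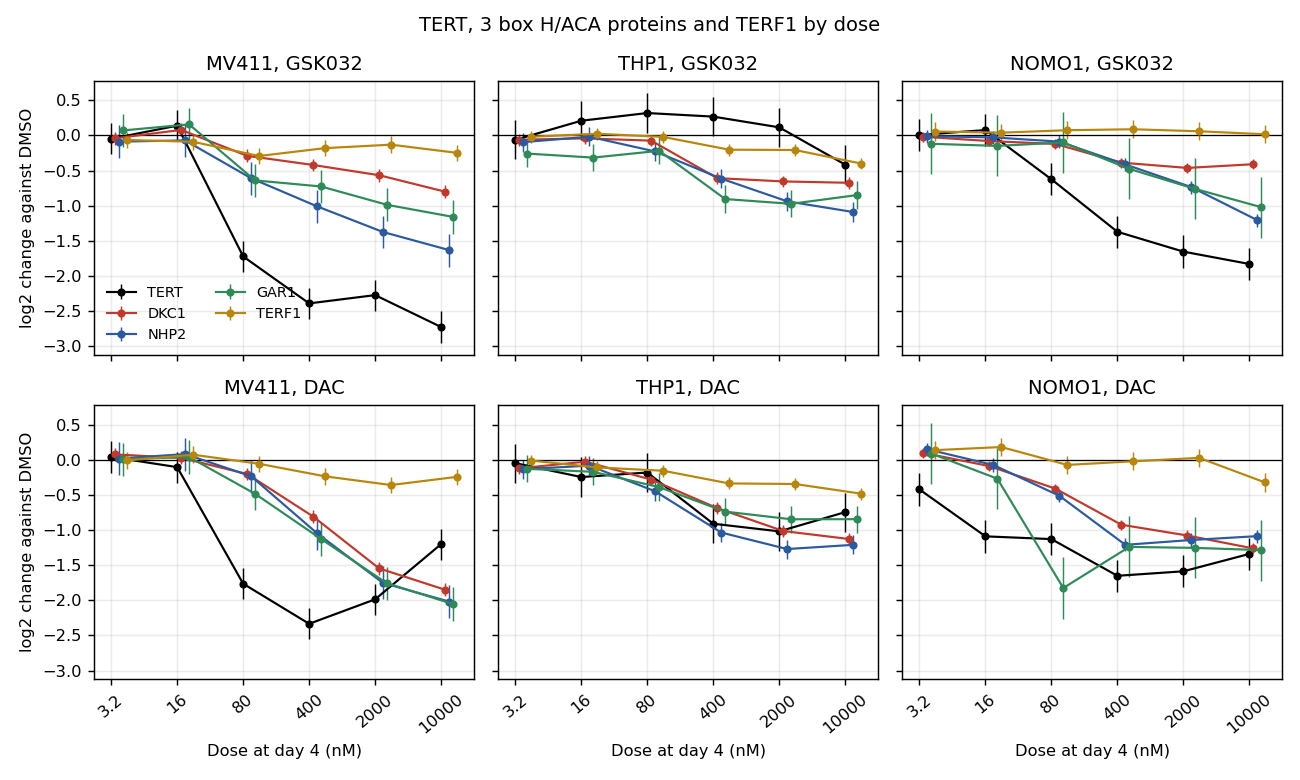
Log2 difference from DMSO at day 4 against dose in nM on a log axis, for TERT, DKC1, NHP2, GAR1 and TERF1 in each line with GSK032 and DAC, with bars for standard errors. In MV411 TERT is lower at 10000 nM GSK032 (-2.73) than at 10000 nM DAC (-1.2), while DKC1 is lower with DAC (-1.85).

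GSK862 was tested at 1000 nM, a dose no other agent shares, so its values are given beside those of 400 nM GSK032 with no test between them. TERT in MV411 was 1.47 and 1.29 FPKM at day 2 and 0.586 and 0.157 at day 4, and it fell by 1.27 at day 2 (adjusted p = 0.000308). In NOMO1 it was 0.336 and 0.266 at day 4, a fall of 1.4 (adjusted p = 4.45e-05), and in THP1 2.92 and 1.75, with a log2 difference of 0.27 (adjusted p = 0.654). The 400 nM GSK032 differences were -1.28 at day 2 in MV411, and -1.37 in NOMO1 and 0.27 in THP1 at day 4. Partners passing as lower with GSK862 at day 4 were DKC1 and GAR1 in MV411 (11.6% of all genes), and DKC1, NHP2 and TERF2 in THP1 (5.96%) and in NOMO1 (7.37%).

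With GSK477 at 10000 nM TERT was 3.40 and 3.13 FPKM in MV411, 1.72 and 0.911 in THP1 cells and 1.02 and 0.769 in NOMO1 at day 4. The TERT difference from DMSO did not pass in THP1 (-0.38, adjusted p = 0.953) or NOMO1 (-0.60, adjusted p = 0.299, with both libraries below DMSO). The NOMO1 interval before adjustment, -1.07 to -0.13, lay below 0. In MV411 the day 4 difference was -0.17, given without a test. At day 2 the TERT differences were -0.30, -0.40 and -0.08 in MV411, THP1 and NOMO1, and did not pass. At day 4 limma called 0 of 9 partners lower in each line, and 0 had an unadjusted p under 0.05. On that day 1.11%, 0.228% and 0.361% of all genes were lower in MV411, THP1 and NOMO1. At the same dose and day TERT was lower with GSK032 than with GSK477 by -2.56 in MV411 and -1.23 in NOMO1 (adjusted p = 6.21e-05). In THP1 that difference was -0.03, with an interval from -0.60 to 0.54. NHP2 was lower with GSK032 than with GSK477 in all 3 lines, by -1.83, -0.96 and -1.05 in MV411, THP1 and NOMO1.

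Other genes of the pathway were counted in lists chosen by function at 400 nM and day 4. Over all genes tested, the shares lower with GSK032 and DAC were 17.3% and 19.0% for MV411, 13.8% and 19.4% for THP1, and 8.29% and 26.2% for NOMO1. The list for telomerase assembly and template processing held 11 genes, among them PINX1, a telomerase-binding protein. Of these, 6 and 9 fell in MV411 with GSK032 and DAC, 7 and 7 in THP1 cells, and 5 and 11 in NOMO1. By limma 0 were higher, also at an unadjusted p under 0.05. RUVBL1 and RUVBL2, the ATPases that assemble the particle, fell in all 6 comparisons: RUVBL1 by 0.77, 1.07, 0.75, 0.98, 0.47 and 1.39, and RUVBL2 by 0.93, 1.09, 0.38, 0.74, 0.48 and 1.63. Of the other shelterin genes, ACD, which recruits telomerase through its TEL patch, fell by 0.95 and 0.61 in MV411 and by 0.33 and 0.64 in NOMO1. TERF2IP rose with DAC by 0.34 in THP1 and 0.50 in NOMO1, and TINF2 rose by 0.36 with DAC in THP1. The CST complex, which ends telomerase extension, had 0 of 3 genes lower by limma in the 6 comparisons, and 0 at an unadjusted p under 0.05, and CTC1 rose with DAC by 0.26 in THP1 and 0.31 in NOMO1. Of 12 genes for telomere end processing, 5 and 5 fell in MV411, 5 and 5 in THP1 cells, and 0 and 3 in NOMO1 (with GSK032 there, 1 at an unadjusted p under 0.05), the last of these counts near the share of all genes, and they included the helicases BLM (by 0.77 and 0.89 in MV411) and WRN (by 0.41 and 0.81).

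Of 11 regulators of TERT transcription, 6 and 8 fell in MV411, 4 and 5 in THP1 cells, and 2 and 4 in NOMO1. Those that rose numbered 0 and 1, 0 and 1, and 1 and 2. MYC fell in all 6 comparisons, by 0.99 and 1.33 in MV411, 0.63 and 1.33 in THP1 cells, and 0.79 and 1.92 in NOMO1. MXD1, which competes with MYC for MAX, rose with DAC by 0.42, 0.38 and 0.94 in MV411, THP1 and NOMO1. WT1 fell by 1.38 and 0.74 in MV411 and rose by 1.21 with DAC in NOMO1. Of the neighbours of TERT on the chromosome arm, 5 and 6 of 6 tested fell in MV411, 4 and 3 of 6 in THP1 cells, and 2 and 4 of 7 in NOMO1. Neighbours that rose numbered 0 and 0 in MV411, 0 and 1 in THP1 cells, and 1 and 1 in NOMO1. NKD2 fell by 1.8 and 1.47 in MV411, 0.88 and 1.08 in THP1 cells and 1.34 with GSK032 in NOMO1. The seventh gene tested in NOMO1, SLC6A19, was at most 0.00968 FPKM in DMSO and entered the test only through treated libraries, so nothing is read from its value.

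Genes of S phase were counted beside the partners. Of 12, 12 and 12 fell in MV411, 11 and 12 in THP1 cells, and 2 and 11 in NOMO1, where 8.29% of all genes fell with GSK032 and 26.2% with DAC. MCM6, a subunit of the replicative helicase, fell by 1.35 and 1.73 in MV411, 0.76 and 1.09 in THP1 cells and 0.99 with DAC in NOMO1. In NOMO1 with GSK032 its log2 difference was -0.14 (adjusted p = 0.0568), and the 2 genes that fell there were MCM3 (by 0.27) and GINS2 (by 0.18). RRM2 rose by 0.36 with DAC in NOMO1. Genes of monocyte maturation rose in 3 and 3 of 5 in MV411, 5 and 6 of 6 in THP1 cells, and 5 and 2 of 6 in NOMO1, where 3 fell with DAC. Of all genes tested, 15.9% (MV411), 9.21% (THP1) and 10.2% (NOMO1) rose with GSK032. With DAC these shares were 16.8%, 19.1% and 26.1%, so the NOMO1 count of 2 of 6 lay near its share. Fewer cycling cells and less RNA per cell cannot be told apart in these bulk libraries. The part of either list in the values of the members was not tested.

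**Figure D5:**
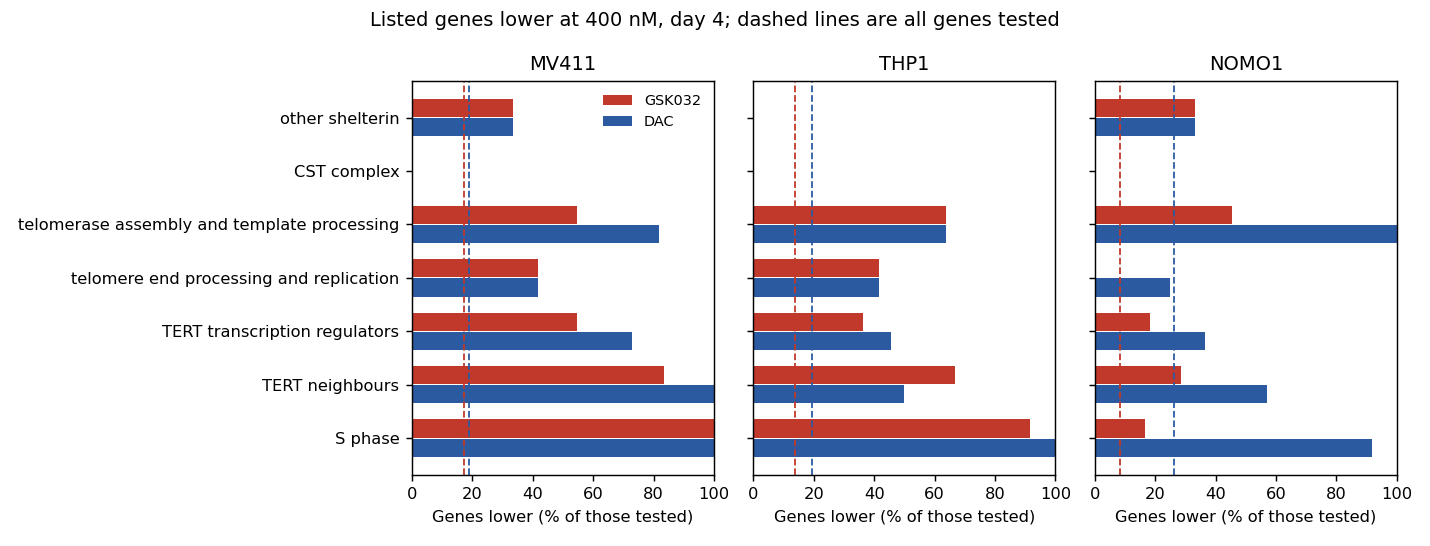
Percent of the tested genes in each list that were lower at 400 nM and day 4, by line and agent, with dashed lines for all genes tested. S phase stood at 100% in MV411 with GSK032 against 17.3% of all genes, and the CST complex at 0.

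The genes whose pattern was most like that of TERT were ranked by Pearson correlation of log2 means over the 78 groups, which share DMSO controls, lines and scaling. Over 16540 genes the median r was 0.04. The 5 highest were SHANK1 (0.834), GNB1L (0.832), MED24 (0.829), UQCC1 (0.821) and SREK1IP1 (0.817). The means include the MV411 day 4 groups that chose the set, so the ranking is a description only. Of the 9 partners GAR1 reached 0.70 (rank 534), NHP2 0.68 (785), WRAP53 0.66 (1113), DKC1 0.62 (1857), POT1 0.60 (2080), TERF2 0.58 (2307), NOP10 0.52 (3203), TERF1 0.50 (3380) and TERC -0.03 (9127). Within lines, r for DKC1 was 0.60 in MV411, 0.46 in THP1 and 0.76 in NOMO1, and for NOP10 0.72, 0.18 and 0.11. PINX1, a telomerase-binding protein counted in the list for assembly and template processing, ranked 85 at 0.76, and MYC 624 at 0.69. The 12 genes of S phase had r from 0.65 to 0.72. Among them GINS2, at 0.72, ranked 342, above MYC and every partner.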

How the data were processed

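RNA-seq values for 156 libraries (3 lines, 78 groups of 2) were taken from 3 tables of FPKM deposited by the authors, 1 for each line. The submitters' processing notes name hg38, DESeq2 and Salmon 0.12.0, and how FPKM was made is not given in the sources used here. Log2 fold changes in the authors' deposited comparison tables were read as they stand for TERT. All 60 member values read there had the sign of those fitted here. The other THP1 DAC column, which does not match, was left out of that count. No counts were used, so depth is unknown and values carry no counting interval. Ensembl IDs were matched to GENCODE 29 (56511 of 59939, 94.3%), and the deposited FPKM were not rescaled.

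Values were tested with limma 3.58.1 (R 4.3.3) on log2(FPKM + 0.5), separately in each line, for genes at 1 FPKM or more in at least 2 libraries (22007 in MV411, 23226 in THP1 and 20763 in NOMO1; all 10 members passed in each line). Each fit held 26 groups and 26 residual degrees of freedom, with a variance trend and Benjamini-Hochberg adjustment over all genes tested. Its recovery was tested on simulated data, with the outcome not reported here, and no statement above rests on it. Promoter motifs were counted on both strands of RefSeq sequences over the 250 bases before each start. Python 3.11.15 was used for summaries.

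The members and lists were chosen with earlier results of these data known. Named genes were the members, up to 2 genes in each direction per other list by size of change, some cell type markers given as levels, and the 5 most like TERT. The contrast of 10000 nM with 400 nM DAC and the fit without 1 NOMO1 library were added after the data were seen. In MV411, 4 libraries carry no replicate number. Alternatives changed the pseudocount (0.1 or 1), the filter, the scaling, the variance trend, the libraries fitted and the size of change counted.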

Additional observations from a re-analysis of the deposited data

Results flagged for a closer look

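The effect of 400 nM on TERT differed between days 1 and 6 by a test of the difference itself (limma, adjusted over all genes of a line) in 5 of the 6 line and agent pairs. The day 6 effect minus the day 1 effect was -2.81 on the log2 scale for GSK032 and -1.96 for DAC in MV411, -2.26 and -2.72 in NOMO1, and -1.67 for DAC in THP1. In NOMO1 with DAC the day 1 difference, which did not pass, was 0.49, and that of day 6 was -2.23. In THP1 the DMSO libraries themselves went from 1.27 and 1.47 FPKM at day 1 to 3.46 and 3.67 at day 6, and the DAC libraries from 1.5 and 1.07 to 0.671 and 0.752. In THP1 with GSK032 the difference was -0.53 (adjusted p = 0.453).

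The same test passed for some partners. The share of all genes that passed it is not given here, so the number of partners named is not read as a result about them. In MV411 the effect on POT1 differed with GSK032 (-0.75). In THP1 DKC1 (-0.51) and NHP2 (-0.73) did with GSK032, and DKC1 (-0.74), NHP2 (-1.25), GAR1 (-0.84) and POT1 (-0.51) with DAC. In NOMO1 DKC1 (-0.37) and NHP2 (-0.57) did with GSK032, and DKC1 (-0.985), NOP10 (-0.50), NHP2 (-1.48) and WRAP53 (-0.91) with DAC.

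At 400 nM GSK032 and day 4 both libraries had TERT lower than both DMSO libraries in MV411 (log2 difference -2.39) and NOMO1 (-1.37) and higher in THP1 (0.27). The difference between lines was not tested, the THP1 value did not pass, and the MV411 value chose the set.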

How the results depend on the processing

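The 60 member values at 400 nM and day 4 include those of TERT in MV411, which chose the set. In every count out of 60 here, those were compared by direction only and not by threshold. All 60 kept their direction, and the others their side of the threshold, with a pseudocount of 0.1 or 1, median ratio scaling or no variance trend. When a change of at least 1 was also required, the partners lower with GSK032 and DAC numbered 2 and 2 in MV411, 0 and 1 in THP1 cells, and 0 and 2 in NOMO1. Fitting only the groups compared ended the calls of 12 of the 60 values. Partners lower then numbered 3 and 4 in MV411 and 3 for DAC in THP1, and the NOMO1 GSK032 call of TERT (-1.37) ended. Equal FPKM sums gave 3 (MV411 GSK032) and 0 (NOMO1 GSK032). With them the median of all genes was 0.25 against 0 in MV411 with GSK032 and -0.34 against -0.03 in THP1 with DAC, and they moved the share of calls that were lower from 52.0% to 23.9%, from 50.4% to 76.7%, and in NOMO1 from 44.8% to 14.5% with GSK032 and from 50.0% to 39.4% with DAC. All-gene calls lower then numbered 1506 against 3798 in MV411, 1591 against 3209 in THP1 and 275 against 1721 in NOMO1 with GSK032, and 7151 against 4507 (THP1) and 3455 against 5432 (NOMO1) with DAC. Fitting only the groups compared, they numbered 2413, 751 and 883 with GSK032 and 3263, 3130 and 5061 with DAC. With a change of at least 1 also required, they numbered 607, 78 and 78 with GSK032 and 734, 449 and 1234 with DAC (against 4187, 4507 and 5432). With equal sums signs turned for TERF1 (0.10) and TERF2 (0.08) in MV411 and POT1 (0.083) in NOMO1 with GSK032, and for TERF1 (0.079) in NOMO1 with DAC. The cause was not tested.

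Leaving out 1 library gave 4 to 7 and 4 to 6 partners lower in MV411 with GSK032 and DAC, 3 to 3 and 4 to 5 in THP1, and 1 to 3 and 4 to 5 in NOMO1, while lower calls over all genes also fell, as in MV411 to 2674 against 3798 with GSK032 and to 3137 against 4187 with DAC at the lowest. Values whose sign turned were TERC in MV411 with GSK032 (-1.83 to 0.61) and DAC (-2.12 to 0.33) and in THP1 with GSK032 (-0.16 to 0.49), POT1 (-0.117 to 0.082) and TERF1 (-0.01 to 0.186) in NOMO1 with GSK032, and TERF1 in NOMO1 with DAC (-0.12 to 0.076). In NOMO1 DAC 80 nM, without replicate 2, TERC was 0.93, TERF1 0.18 and POT1 0.043, GAR1 was -0.45 (adjusted p = 0.268) against -1.83, and TERT -1.30. Without 10000 nM, dose slopes turned for TERT (0.0414, THP1 GSK032), TERC (0.0392, THP1 DAC and 0.0053, NOMO1 DAC) and TERF1 (0.0055, NOMO1 GSK032). None of the 5 genes most like TERT was among the 5 of a single line (0 in MV411, 0 in THP1, 0 in NOMO1), and 2 were with equal sums. Same-numbered libraries had a median correlation of 0.08, 0.08 and 0.09 in MV411, THP1 and NOMO1. Of the group pairs, 101 of 276, 93 of 325 and 112 of 325 were over 0.1, with highest values of 0.417, 0.22 and 0.233. The main fits did not use the numbers, so any spread that same-numbered libraries share stayed in them. A replicate block left 57 of 60 values as they were and made 5 partners lower in THP1 with GSK032. Lower calls over all genes with GSK032 were then 4058 against 3798 in MV411, 3860 against 3209 in THP1 and 2342 against 1721 in NOMO1. Depth is unknown, and 2 libraries a group limit the precision.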
